A study of Rattus norvegicus with 12 samples.

Results

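The 9 genes described here encode proteins that neutrophils carry in their granules or cytosol: S100a8, S100a9, Mmp9, Np4, Mmp8, Camp, Lcn2, Mpo and Elane. They were followed in the mesenteric lymph nodes (MLN) of Wistar rat pups at day 21, on 12 Affymetrix arrays of rat genes, 1 for each pup and 3 for each group. Members were taken as all probe sets that the platform annotation gives to these symbols. This yielded 8 probe sets for 7 genes, of 31042 probe sets tested, and Mpo and Elane, the peroxidase and the elastase of primary granules, had no probe set under these names. The genes were chosen by their measured levels in group A against group D, where several of them were high, so their values in group A are given below as a description without a test.

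Conjugated linoleic acid (CLA) is a family of fatty acids, given here as a mix of 80% of the c9,t11 and 20% of the t10,c12 isomer. In group A the dams ate a diet with 1% CLA over the last 2 weeks of gestation and on through suckling, so that the pups received CLA in milk (5 wk of supplementation in all). In group B the dams ate that diet in gestation only, and the pups received CLA by gavage every day of suckling (5 wk). In group C the dams ate a standard diet and the pups were gavaged with CLA during suckling alone (3 wk). Group D, the reference, had standard diet and no CLA (0 wk), and the sources used here do not say whether its pups were gavaged. All pups were suckled to day 21 with rat diet at hand. The 3 animals of a group were drawn at random from 10, and pups were kept in litters of 10 for each dam, but the sources used here do not name the litter of any pup. A litter and its group therefore cannot be told apart, and the tests below measure the spread between pups only. RNA came from the whole node, so fewer cells of a type and less RNA per cell cannot be told apart.

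Neutrophils are short-lived phagocytes made in the bone marrow that enter tissue from the blood. They make granule proteins in waves as they mature: the peroxidase and elastase of primary granules come early, lipocalin 2, cathelicidin and the collagenase Mmp8 follow in specific granules, and gelatinase, Mmp9, is made late. S100a8 and S100a9 pair to form calprotectin, the main cytosolic protein of neutrophils, which binds calcium, zinc and manganese and is measured in stool as a marker of gut inflammation. Few neutrophils are found in a resting lymph node.

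Levels are given as log2 of the signal intensity after quantile normalization over the 12 arrays, so a difference of 1 is a fold of 2 between groups for the same probe set. The background of an array was set at the 95th percentile of 27 control probe sets for bacterial transcripts that were not added, and it lay between 2.33 and 3.20 on this log2 scale. Replicate 3 of group D stood apart: its mean correlation over all probe sets was 0.93 with the arrays of groups B and C and 0.90 with the rest of group D. Results against group D are therefore also given without that array. Leaving out the reference array most like groups B and C in itself favours calls of these groups against group D. The 3'/5' signal ratio of hexokinase, a measure of RNA integrity, ran from 2.83 to 5.40 in group A and from 1.82 to 2.38 in group D. The part of these differences in the results below was not tested.

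Both calprotectin subunits were highest in group A. The normalized log2 intensity of S100a8 was 6.86, 6.74 and 6.0 in the 3 arrays of group A, 4.67, 3.49 and 2.81 in B, 3.72, 5.69 and 4.36 in C, and 0.55, 3.94 and 3.95 in D. All arrays of group A lay above all others, and replicate 1 of group D lay within the background. The mean of S100a8 in group A exceeded that in group D by 3.72 on the log2 scale, a fold of 13.2, and this value rested in part on the dim array, since without replicate 1 of group D the difference was 2.58. Without replicate 3 of group D it was 4.31.

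S100a9 was above background on all 12 arrays. Its normalized log2 intensity was 7.62, 7.08 and 6.76 in group A, 5.57, 4.35 and 4.31 in B, 5.31, 7.13 and 4.96 in C, and 4.41, 4.67 and 5.09 in D. Group A lay above groups B and D without overlap, whereas replicate 2 of group C reached the level of group A. This same pup had the highest S100a8 of the gavaged groups. As deposited, before normalization, the S100a9 intensity was 134.2 to 237.7 in group A and 28.5 to 40.6 in group D. The difference between the group means was 2.43 on the normalized log2 scale, a fold of 5.39, and 2.62 without replicate 3 of group D.

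**Figure D1:**
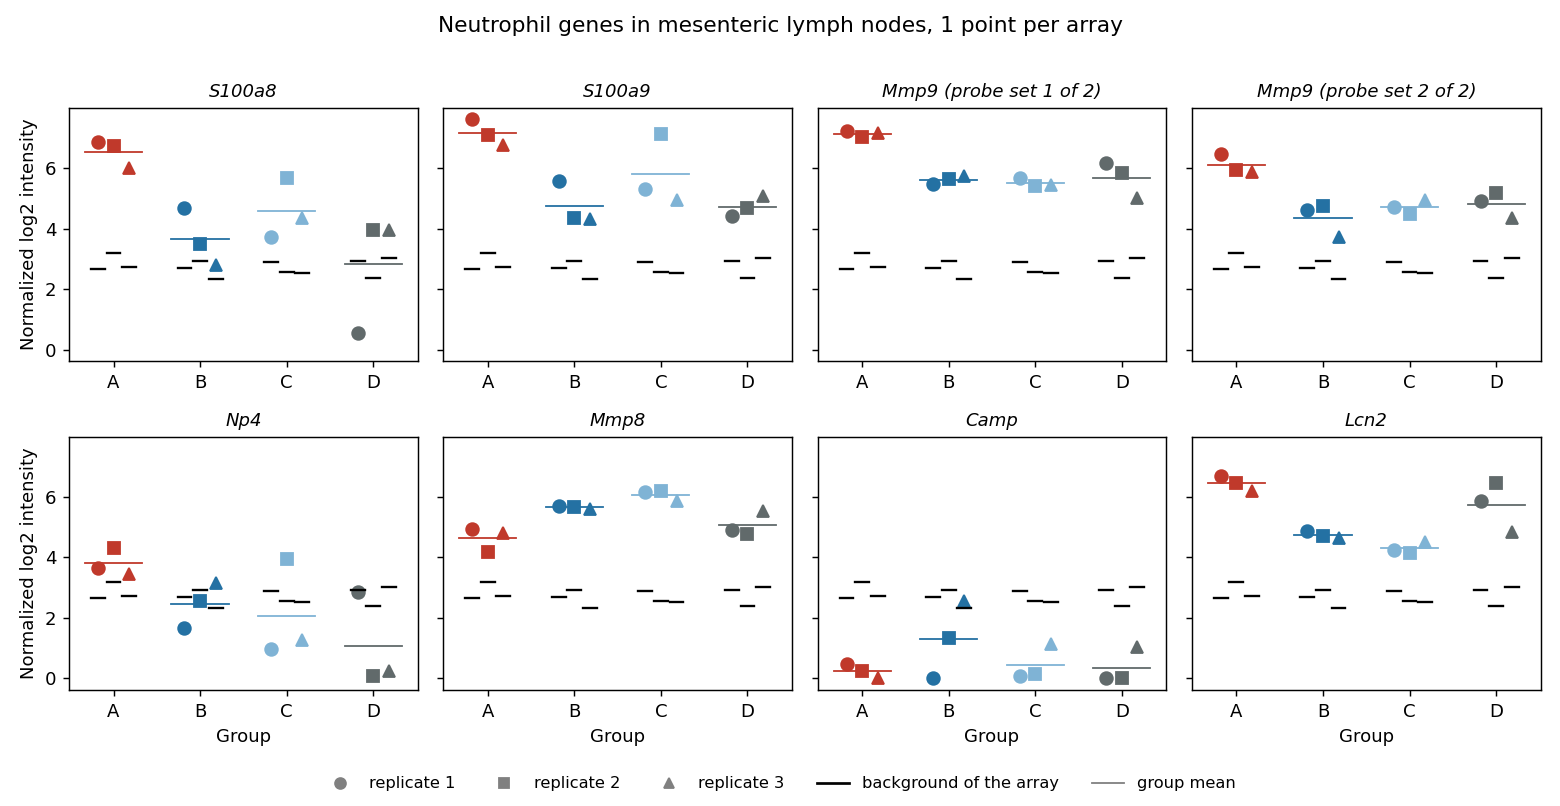
Normalized log2 intensity (y axis) of each probe set of the neutrophil genes in groups A, B, C and D (x axis), with 1 point per array, the symbol giving the replicate, a coloured line at the group mean and a short black line at the background of each array. S100a8, S100a9 and both Mmp9 probe sets sit highest in group A, Mmp8 highest in group C, Lcn2 high in groups A and D, and Camp at or under the background on 11 of 12 arrays.

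In the gavaged groups no difference of calprotectin from group D passed the test. The S100a9 mean of group B was 0.02 above that of group D (SE 0.51, 95% interval from -1.08 to 1.12 on the log2 scale, adjusted p = 0.9925). That of group C was 1.08 above group D (SE 0.51, adjusted p = 0.2899). For S100a8 group B was 0.84 above group D (SE 0.83, adjusted p = 0.6625) and group C 1.77 above it (SE 0.83, adjusted p = 0.2911), with wide intervals that reached from -0.97 to 2.65 and from -0.03 to 3.58. Without replicate 1 of group D, the S100a8 difference in group B turned to -0.29 and that in group C was 0.64 (adjusted p = 0.7389). Without replicate 2 of group C, the group C differences were 1.22 for S100a8 (adjusted p = 0.557) and 0.41 for S100a9 (adjusted p = 0.6653). These tests share the arrays of group D with the comparison for which the genes were proposed.

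Mmp9, the gelatinase B that cuts basement membrane collagen and denatured collagen, separated group A from the rest on both of its probe sets. The brighter of them had a normalized log2 intensity of 7.22, 7.04 and 7.17 in group A, 5.47, 5.63 and 5.76 in B, 5.68, 5.41 and 5.43 in C, and 6.18, 5.85 and 5.02 in D. The other probe set of the gene read 6.46, 5.95 and 5.87 in group A, 4.61, 4.76 and 3.72 in B, 4.72, 4.48 and 4.95 in C, and 4.90, 5.19 and 4.35 in D. Both probe sets were above background on all 12 arrays, and in both all arrays of group A lay above the other 9. The difference between groups A and D was 1.46 by the brighter probe set, a fold of 2.75, and 1.28 by the other. Without replicate 3 of group D, the lowest array of its group, the brighter probe set gave 1.13. Groups B and C lay close to group D, with differences of -0.06 (SE 0.25, 95% interval from -0.61 to 0.48, adjusted p = 0.9328) and -0.17 (SE 0.25, 95% interval from -0.72 to 0.37, adjusted p = 0.7629).

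Np4, an alpha-defensin of rat neutrophils that permeates microbial membranes, was above background on every array of group A and of no other group. Its normalized log2 intensity was 3.66, 4.33 and 3.45 in group A, 1.66, 2.55 and 3.17 in B, 0.97, 3.96 and 1.27 in C, and 2.85, 0.07 and 0.26 in D. It was above background in 3 of 3 arrays of group A, in 1 array of group B (replicate 3), in 1 of group C (replicate 2, the pup with high calprotectin) and in none of group D. Because group D gave only a bound, the level in group A was at least 2.04-fold higher, taken as the mean of group A over the mean background of the group D arrays, with measured means of 3.81 and 1.06. For groups B and C the differences from group D were 1.40 (SE 0.89, adjusted p = 0.4700) and 1.01 (SE 0.89, adjusted p = 0.5933), between arrays that mostly lay within the background.

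Mmp8 and Lcn2 followed other patterns. Mmp8, the neutrophil collagenase that cleaves fibrillar collagen, had a normalized log2 intensity of 4.95, 4.19 and 4.80 in group A, 5.69, 5.67 and 5.62 in B, 6.15, 6.19 and 5.87 in C, and 4.90, 4.77 and 5.52 in D. Every array of the gavaged groups lay above every array of groups A and D, where 14.6% of all probe sets did not overlap between groups B and D and 14.9% between C and D. The mean of group A was 0.42 under that of group D, with overlapping arrays. Lcn2, a lipocalin that withholds iron from bacteria by binding their siderophores and that epithelial cells also make, read 6.69, 6.47 and 6.19 in group A, 4.89, 4.70 and 4.65 in B, 4.25, 4.15 and 4.50 in C, and 5.86, 6.46 and 4.85 in D. Here group A and replicates 1 and 2 of group D were high, while groups B and C were low together with replicate 3 of group D. The mean of group A was 0.73 above that of group D, and 0.29 without replicate 3 of group D.

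Against group D, with all arrays, Mmp8 was 0.59 higher in group B (SE 0.26, adjusted p = 0.3001), and the excess of group C was 1.01 (SE 0.26, adjusted p = 0.1564). Lcn2 was lower, with differences of -0.98 in group B (SE 0.34, adjusted p = 0.2242) and, without overlap of the arrays, -1.42 in group C (SE 0.34, adjusted p = 0.1389). None of these 4 differences passed the test, and neither did that of any other member: limma called 0 of 7 genes in each of the 2 comparisons, with 2 genes in each, Mmp8 and Lcn2, at an unadjusted p under 0.05, which held for 15.8% of all probe sets in the former comparison and 17.7% in the latter. Over all probe sets 0.0161% were called in group B against D and 0.0515% in group C against D. The calls turned on replicate 3 of group D. Without it, Mmp8 rose by 0.83 in group B (adjusted p = 0.03844), and in group C the rise was 1.24 (adjusted p = 0.004221). Lcn2 fell by 1.42 in group B (adjusted p = 0.002107), and in group C it fell by 1.87 (adjusted p = 0.0003165). Leaving that array out also brought 17.3% of all probe sets past the test in group B and 19.4% in group C, so 2 of 7 genes is to be read against about that share. Because the array was set apart by its likeness to these groups, no conclusion is drawn from the 4 calls. The calprotectin genes, Mmp9, Np4 and Camp did not pass without this array either, the nearest being Mmp9 in group C at -0.51 (adjusted p = 0.05908).

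**Figure D2:**
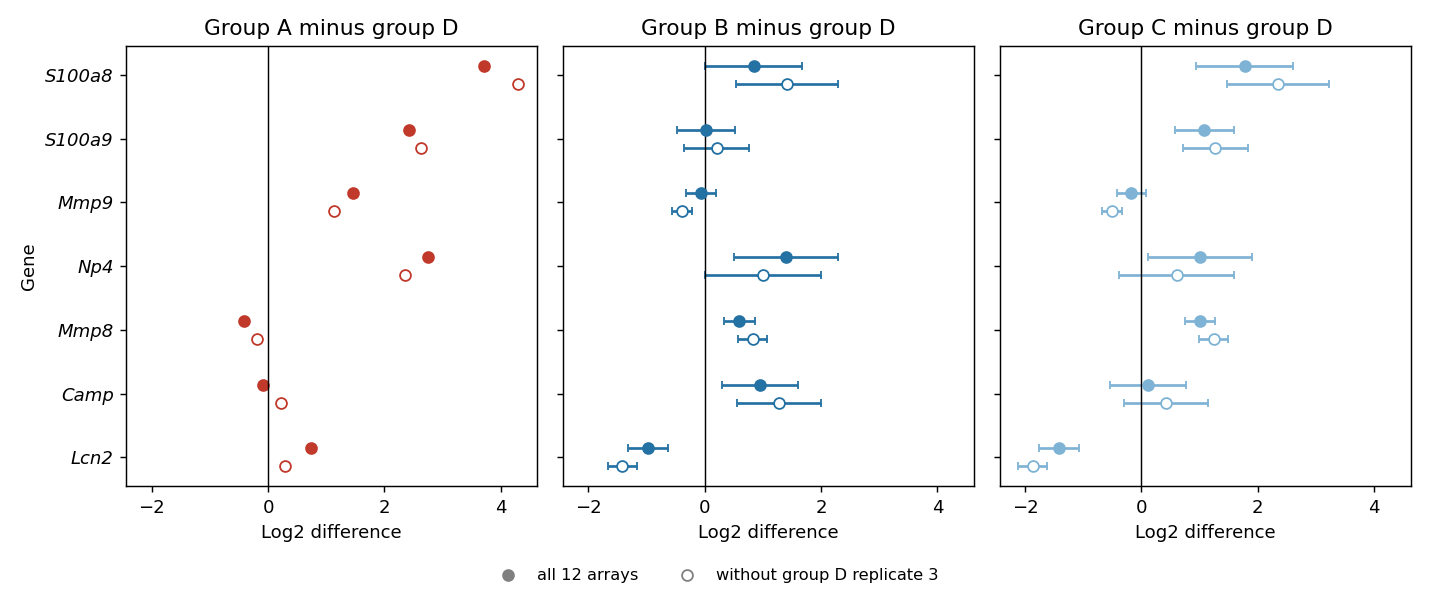
Difference in mean normalized log2 intensity (x axis) of each gene (y axis) between groups A, B or C and group D, with all 12 arrays (filled) and without replicate 3 of group D (open); bars are 1 SE and are left out for group A, where the genes were chosen. Calprotectin, Mmp9 and Np4 lie to the right in group A, and Mmp8 lies above 0 and Lcn2 under 0 in groups B and C, both farther out without that array.

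Camp, the cathelicidin precursor that is cut into an antimicrobial peptide, gave no usable level. Its normalized log2 intensity did not exceed 0.49 in group A, 1.15 in group C or 1.03 in group D, and only replicate 3 of group B, at 2.55, was above the background of its array. Differences between groups for Camp are therefore differences within the background.

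By counts, 4 of the 7 genes (S100a8, S100a9, Mmp9 and Np4) had all arrays of group A above all of group D, with or without replicate 3 of group D, where 19.2% of all probe sets did with all arrays. The choice of the genes fixed this count in part, so nothing is read from it. Group A also shares its arrays with the comparisons against the gavaged groups. There the difference was 2.88 against group B and 1.95 against group C for S100a8, 2.41 and 1.35 for S100a9, 1.52 and 1.63 for Mmp9, 1.71 and 2.15 for Lcn2, and -1.01 and -1.42 for Mmp8. In these, Mmp9, Lcn2, Mmp8 and S100a8 had no overlap between group A and either gavaged group, and 47.6% of all probe sets did not overlap between groups A and B and 48.4% between A and C.

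Groups B and C, which differ in whether the dam ate CLA in gestation, can be compared without any array of groups A and D. None of the 7 genes passed (all adjusted p = 1, and 0 at an unadjusted p under 0.05, by limma), where 0.00322% of all probe sets passed and 4% lay under that unadjusted p. The differences of group B from group C were -0.93 for S100a8 (95% interval from -2.74 to 0.87), -1.06 for S100a9 (from -2.16 to 0.04), 0.11 for Mmp9 (from -0.43 to 0.66), 0.39 for Np4, -0.41 for Mmp8 (from -0.98 to 0.16), 0.85 for Camp and 0.45 for Lcn2 (from -0.29 to 1.18). For Mmp8 and Lcn2 the arrays of the 2 groups did not overlap, which held for 10.7% of all probe sets. The intervals for calprotectin still allow differences of 2 on the log2 scale, and replicate 1 of group B and replicate 2 of group C were the highest arrays of their groups for both subunits.

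Across the 12 arrays some members moved together or apart. S100a8 and S100a9, which are neighbours in the RefSeq map of the rat genome, correlated at r = 0.88. Once each group's mean was removed the value was 0.66, and it was 0.64 without replicate 3 of group D and 0.88 without replicate 1 of that group, both left out after the data were seen. Mmp8 and Lcn2 ran opposite, with r = -0.94 with or without replicate 3 of group D. Their correlation within groups, -0.64, was -0.17 without that array. Mmp9 correlated with Lcn2 at 0.81 and with Mmp8 at -0.76, and at 0.83 and -0.80 without that array. Within groups these values turned from 0.65 to -0.54 for Lcn2 and from -0.46 to 0.41 for Mmp8 when it was left out, so for Mmp9, Mmp8 and Lcn2 the correlations between pups of a group rested on that array. Mmp9 and S100a8 correlated at 0.49 over all arrays and at 0.75 without replicate 1 of group D. Within groups they ran opposite, at -0.71, with -0.38 without replicate 1 and -0.86 without replicate 3 of group D. The positive value over all arrays thus reflected differences between groups, not between pups of a group. These are descriptions over 12 arrays that share 1 normalization and fall into 4 groups. The genes were chosen by their levels in group A against group D. Positive values over all arrays among S100a8, S100a9 and Mmp9 therefore follow in part from that choice.

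**Figure D3:**
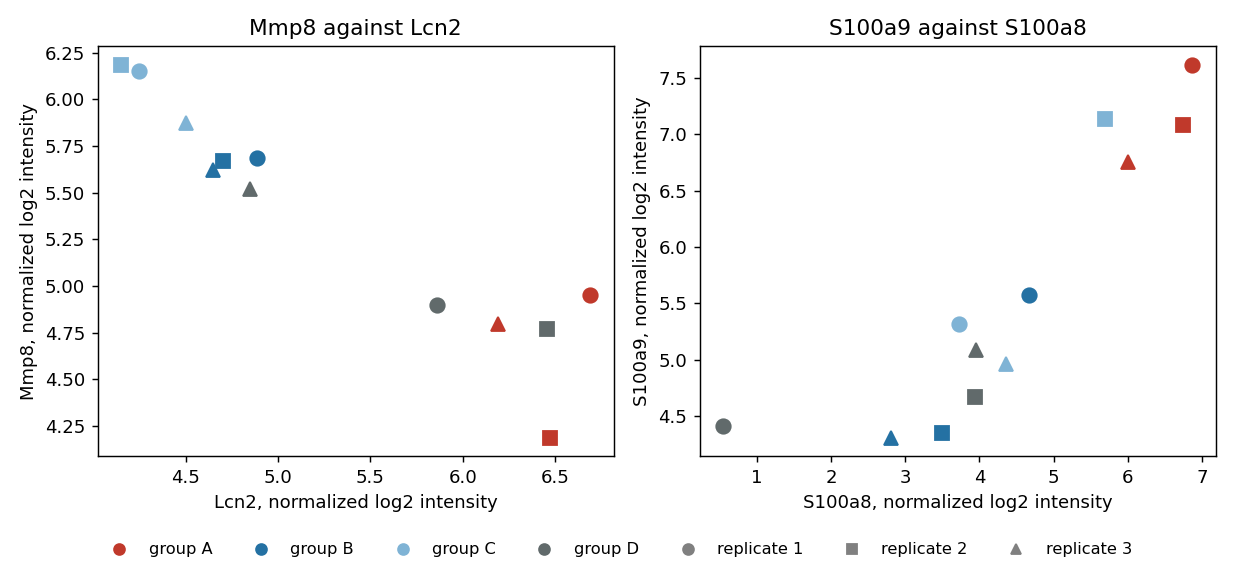
Normalized log2 intensity of Mmp8 (y axis) against Lcn2 (x axis), left, and of S100a9 (y axis) against S100a8 (x axis), right, with 1 point per array, colours for groups and symbols for replicates. Mmp8 and Lcn2 run in opposite directions, with replicate 3 of group D beside the gavaged groups, and the calprotectin subunits rise together, with replicate 2 of group C near group A.

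The promoters of a calprotectin gene and of the genes with opposite patterns are shown because the former was highest in group A and the latter ran opposite over the arrays. They are RefSeq sequences of the rat build GRCr8, the 250 bases before the start site, read on the gene's strand, where an entry was given for S100a9, Np4, Mmp8, Camp, Lcn2 and Mpo. Capitals mark matches, on either strand, to 4 sequence motifs: TTNNGNAA for the C/EBP family and GAGGAA for PU.1, which are transcription factors of myeloid cells, GGGA and TTCC with any 2 bases between them for NF-kB, and TATAAA for the TATA box.
S100a9 (chr2:178490623-178490872, minus strand): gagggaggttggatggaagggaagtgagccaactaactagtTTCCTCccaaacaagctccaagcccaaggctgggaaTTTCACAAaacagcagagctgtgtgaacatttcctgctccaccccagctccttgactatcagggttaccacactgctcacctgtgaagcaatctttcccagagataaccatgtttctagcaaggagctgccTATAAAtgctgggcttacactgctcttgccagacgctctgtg
Mmp8 (chr8:13008640-13008889, plus strand): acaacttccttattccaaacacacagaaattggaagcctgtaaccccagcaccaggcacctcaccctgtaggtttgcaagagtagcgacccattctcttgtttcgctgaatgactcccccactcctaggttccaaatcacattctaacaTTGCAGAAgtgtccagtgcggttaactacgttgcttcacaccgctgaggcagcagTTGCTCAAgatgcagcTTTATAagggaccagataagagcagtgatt
Lcn2 (chr3:36081781-36082030, minus strand): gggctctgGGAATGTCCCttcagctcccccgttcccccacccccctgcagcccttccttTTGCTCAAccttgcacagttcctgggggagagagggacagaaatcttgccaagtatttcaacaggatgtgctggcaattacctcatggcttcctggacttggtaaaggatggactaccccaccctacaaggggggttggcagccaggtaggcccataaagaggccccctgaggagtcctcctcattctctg
The C/EBP letters stood once in the S100a9 window, at 173 bases before the start, 2 times in the Mmp8 window and once in the Lcn2 window, against 37.2% of all 33469 promoter windows of this length with at least 1 match. The PU.1 letters occurred in S100a9 and Mpo, as in 23.3% of all windows, and the TATA letters in S100a9 and Mmp8, as in 12.9%. The NF-kB letters occurred in Lcn2, as in 1.08% of all windows. The windows of Np4 and Mpo held 3 and 1 C/EBP matches, and that of Camp held none of the 4 motifs. The match is of letters only, and these overlapped in no window shown.

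The members were set beside the other neutrophil genes. Of 67 further genes in 5 lists (granule and secreted proteins, receptors and adhesion molecules, chemoattractants and growth factors, the phagocyte oxidase, and myeloid transcription factors), 47 had a probe set, and in group A against group D 5 rose and 4 fell, where 10.1% of all probe sets rose and 10.2% fell. Without replicate 3 of group D, 7 rose and 5 fell, with 21.9% of all probe sets called in either direction. Against group D none passed in group B or C, by limma with all arrays, although at an unadjusted p under 0.05 there were 1 higher and 7 lower genes for group B, and 1 higher and 8 lower for group C, where 15.8% and 17.7% of all probe sets lay under that p. Without replicate 3 of group D, 1 rose and 2 fell in group B, and 1 rose and 4 fell in group C, with 17.3% and 19.4% of all probe sets called, as above.

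Among other granule and secreted proteins 0 of 13 genes rose in group A and 3 fell, with a median difference of 0.22 over the list against 0.07 over all probe sets. Of the 13 genes, 7 were above background on every array. Pglyrp1, Padi4, Stfa3, RatNP-3b, Defa5 and Defa24 were above it on 2 to 8 of the 12 arrays, so a rise in them could be missed. Anxa1, annexin A1, which curbs neutrophil recruitment and is abundant in many cells, fell by 1.57 (SE 0.12, adjusted p = 6.783e-06): its normalized log2 intensity was 8.40, 8.41 and 8.55 in group A against 9.89, 10.16 and 10.01 in group D. Wfdc21 fell by 2.18 (SE 0.70, adjusted p = 0.0431), a call that was lost in 10 of the 12 fits with 1 array left out and kept without replicate 3 of group C or of group D (highest adjusted p = 0.1584). Lyz2, lysozyme, which macrophages also make, fell by 0.51 (SE 0.13, adjusted p = 0.01595), and lost its call without replicate 2 or 3 of group A (highest adjusted p = 0.06215).

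None of 11 receptor and adhesion genes, 7 of them above background on every array, passed in group A against group D (median 0.18). Csf3r, the receptor of the growth factor that drives neutrophil production, was 0.83 higher with an adjusted p of 0.1271. Its normalized log2 intensity was 6.38, 6.38 and 5.93 in group A, 4.87, 4.82 and 5.57 in B, 5.11, 4.45 and 5.09 in C, and 6.17, 5.30 and 4.74 in D. It thus exceeded both gavaged groups without overlap, by 1.14 over group B (adjusted p = 0.02662) and 1.35 over group C (adjusted p = 0.01108), where 16.8% and 17.6% of all probe sets were higher in group A. Group A gave no call against group D except without replicate 1 of group D (adjusted p = 0.02355). The chemokine receptors Cxcr1 and Cxcr2 differed by 0.98 and -0.81 between groups A and D (adjusted p = 0.5522 and 0.5716), with levels close to the background.

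Of 10 genes for chemoattractants and growth factors, 6 of them above background on every array, Tnf and Ccl3 rose and Il1b fell (median 0.12). Tnf, an inflammatory cytokine, had a normalized log2 intensity of 7.33, 7.26 and 7.10 in group A and 5.97, 6.02 and 5.97 in group D, a rise of 1.25 (SE 0.22, adjusted p = 0.001781). Ccl3, a chemokine of phagocytes, rose by 0.83 (adjusted p = 0.01359), and reached 0.06123 without replicate 3 of group A. Il1b, interleukin 1 beta, fell by 1.33 (SE 0.26, adjusted p = 0.003097), from 7.64, 7.18 and 7.62 in group D to 6.62, 5.80 and 6.02 in group A.

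Of 5 oxidase genes, Cyba and Rac2 rose, by 0.70 (adjusted p = 0.01838) and 0.60 (adjusted p = 0.00155), with a median of 0.47. Cyba encodes the small membrane subunit shared with other cells, and Rac2 a GTPase of blood cells. Among 8 transcription factors Cebpb, a C/EBP factor of emergency granulocyte production and of macrophages, rose by 0.76 (adjusted p = 0.01935), with a median of 0.38. Without replicate 1 or 2 of group A, or replicate 2 of group D, Cyba and Cebpb lost their calls (highest adjusted p = 0.07175 and 0.07643).

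Of 12 other S100 genes, a family of small calcium-binding proteins, 3 rose in group A against group D: S100a5 by 1.07 (adjusted p = 0.003872), S100a3 by 0.91 (adjusted p = 0.00606) and S100a13 by 0.41 (adjusted p = 0.03063), the last losing its call without 1 of 4 arrays (replicates 1 and 2 of group A, 2 and 3 of group D, highest adjusted p = 0.1224). The median of the list was 0.36, and 10.1% of all probe sets rose. Among 4 genes for proteins to which calprotectin binds or signals, Cd36, a fatty acid transporter and scavenger receptor, fell by 2.20 (SE 0.20, adjusted p = 1.726e-05), from 9.21, 9.13 and 8.95 in group D to 6.92, 6.65 and 7.10 in group A, while Tlr4, Ager and Bsg differed by -0.38, 0.68 and 0.31 and did not pass. Of 5 inhibitors of metalloproteinases, Timp4 rose by 0.84 (adjusted p = 0.02846), a call lost without any 1 array of group A or replicate 1 of group D (highest adjusted p = 0.0832). Timp1 differed by -0.37 between groups A and D (adjusted p = 0.6537 by limma). It passed only without replicate 3 of group D, at -1.16 (adjusted p = 0.0002924). Of the 5 genes, 4 fell in group B and 4 in group C without that array. Of all probe sets, 21.9% were then called for group A, 17.3% for B and 19.4% for C.

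**Figure D4:**
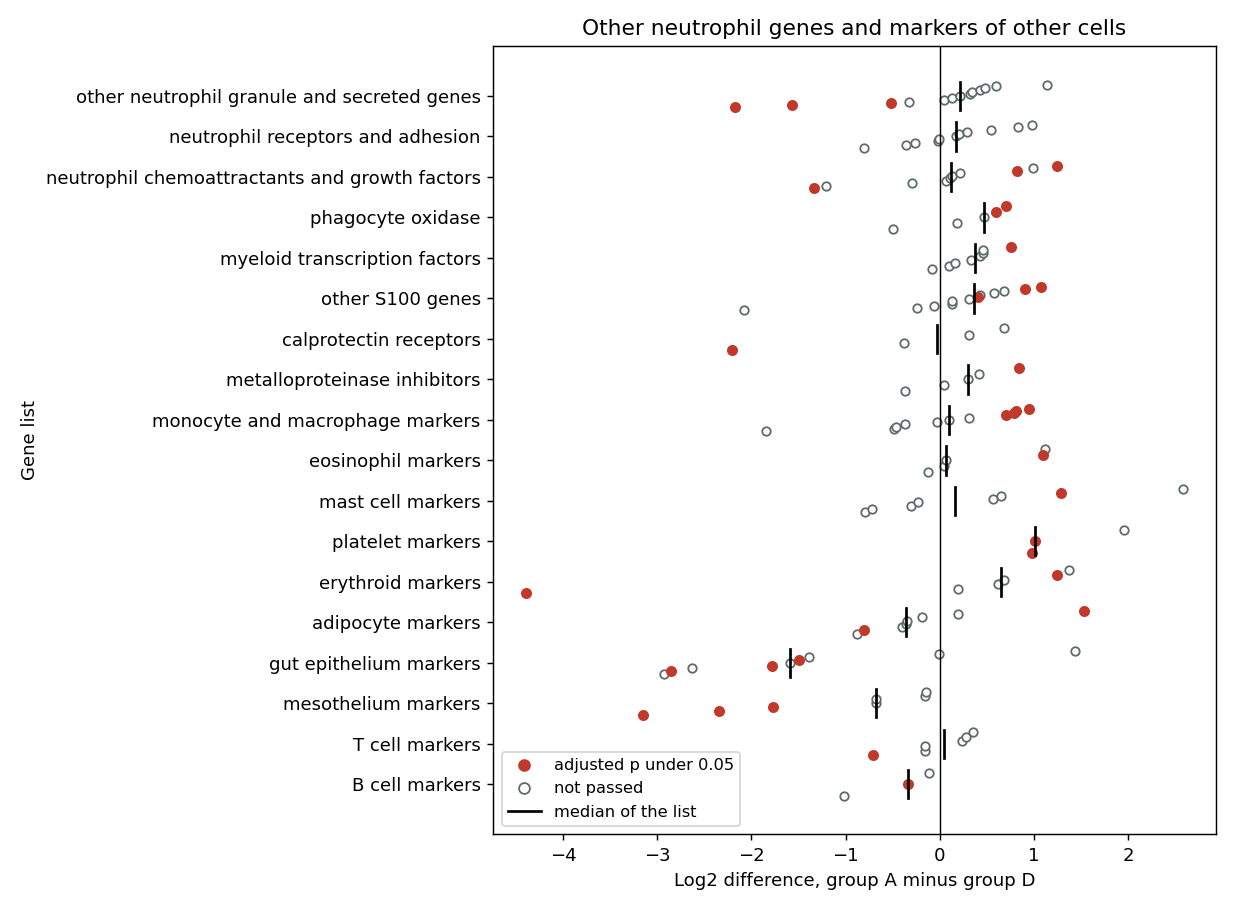
Difference in mean normalized log2 intensity between groups A and D (x axis) of each gene of 18 lists (y axis), filled where the adjusted p was under 0.05 and with a black bar at the median of the list. The other neutrophil lists hold genes on both sides of 0, platelet markers lie to the right with a median of 1.01, and gut epithelium and mesothelium markers lie to the left with medians of -1.59 and -0.68.

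Some markers of other cells also passed between groups A and D, where 10.1% of all probe sets rose and 10.2% fell. Without replicate 3 of group D, 21.9% of all probe sets were called in either direction. Of 11 monocyte and macrophage markers 4 rose, Cd68 by 0.95, C1qc by 0.81, C1qa by 0.79 and Csf1r by 0.71, and none fell, with a median of 0.10. Their summed intensity was 5631 to 5991 in group A and 2796 to 6189 in group D, so replicate 1 of group D reached group A. Without replicate 3 of group D, 1 of the 11 rose and 2 fell. With any 1 array left out, Csf1r lost its call in 11 of 12 fits, C1qc in 8, Cd68 in 4 and C1qa in 2 (highest adjusted p = 0.1317, 0.1191, 0.0747 and 0.05258). All 3 platelet markers with a probe set were higher in group A, and Pf4 and Itga2b passed, with rises of 1.01 and 0.98. The summed platelet level was 172.0 to 262.6 in group A and 75.5 to 129.1 in group D, without overlap, and neither gene passed without replicate 3 of group D (adjusted p of up to 0.121 for Pf4 and 0.1156 for Itga2b over the fits with 1 array left out). Of eosinophil and mast cell markers 1 of 5 and 1 of 8 rose, Prg2 by 1.10 and Cma1 by 1.29 (none without replicate 3 of group D), and of 6 erythroid markers Alas2 rose by 1.24 and Car1 fell by 4.39. The median of the erythroid list was 0.65, against the direction of Car1. Car1 read 3.91, 8.05 and 8.81 in group D and 3.39, 1.72 and 2.49 in group A. It was low in the gavaged groups too, with means of 1.08 in group B and 3.34 in C. Over the same 3 arrays of group D the summed level of the gut epithelium markers was 154.3, 372.6 and 671.6. Above background on every array were 10 of the 11 monocyte, 2 of the 3 platelet, 2 of the 5 eosinophil, 5 of the 8 mast cell and 2 of the 6 erythroid markers.

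Markers of tissue around the node were mostly lower than in group D, both in group A and in the gavaged groups. The median difference of the gut epithelium list was -1.59 in group A, -2.09 in B and -1.20 in C. That of the mesothelium list was -0.68, -0.81 and -1.14. The summed gut epithelium level was 96.3 to 140.0 in group A and 154.3 to 671.6 in group D. In groups B and C it was 78.8 to 91.5 and 90.7 to 140.8. In group A, 3 of 9 gut epithelium markers and 3 of 7 mesothelium markers fell (1 and 5 without replicate 3 of group D). Of 8 adipocyte markers Pck1 rose by 1.53 and Adipoq fell by 0.80 in group A. Among markers of the node's own lymphocytes, which were above background on all arrays, 1 of 6 T cell genes (Cd8a, by -0.71) and 1 of 3 B cell genes (Ms4a1, by -0.34) fell. With any 1 array left out, Ms4a1 lost its call in 9 of 12 fits, Adipoq in 7 and Cd8a in 2 (highest adjusted p = 0.1282, 0.1682 and 0.06965). In groups B and C against group D, only the mesothelium and adipocyte lists of these cell markers held genes that passed with all arrays. The former had 1 lower gene in each group, the latter 1 higher in group B and 1 lower in C. Without replicate 3 of group D, 17.3% of all probe sets were called in group B and 19.4% in C. In group B 2 mast cell, 2 B cell and 1 adipocyte marker then rose. There 5 mesothelium, 3 gut epithelium, 2 adipocyte, 1 monocyte and 1 erythroid marker fell. In group C 2 B cell, 1 mast cell and 1 adipocyte marker rose. There 6 mesothelium, 3 adipocyte, 2 monocyte and 1 eosinophil marker fell. The part of these cells in the levels of S100a8, S100a9, Mmp9 and Np4 was not tested. Over all 18 lists 34 genes were called in group A against group D, and 11 of them in each of the 12 fits with 1 array left out, among them Anxa1, Il1b, Tnf, Rac2, S100a3, S100a5 and Cd36.

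Likeness over the 12 arrays was taken among 11886 genes whose mean over all arrays was above the mean background. Most like S100a8 were Ms4a20 (r = 0.94), Phf1, Foxo1, Stfa2l2, Khsrp, Dhx34, Irf2bp2 and Clcf1 (r = 0.90), and S100a9 ranked 15. In group D the means of Ms4a20, Stfa2l2 and Clcf1 were 2.90, 1.32 and 2.51, within or under the background range of 2.33 to 3.20. The genes most like S100a9 were Tgfbrap1 (r = 0.94), Unk, Ciita, Sh3bp5l, Ythdf1, Arhgef2, Cnnm3 and Ndst2 (r = 0.90), and S100a8 ranked 26. Mmp9 ranked 2365 for S100a8 and 2038 for S100a9, so the likeness of the calprotectin subunits to each other was above that to Mmp9.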

How the data were processed

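Total RNA of whole MLN was hybridized to 1 array per pup. The deposited values are MAS5 signals: a linear intensity per probe set, computed by the authors, whose scaling between arrays the sources used here do not give (array medians ran from 19.3 to 38.5). The number of arrays limits the precision. All 12 columns belong to a sample.

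The 31099 probe sets held 30 zeros, which were set to the smallest positive value (0.1). Log2 values were quantile normalized over all arrays, raised to a linear floor of 1 without a pseudocount, and fitted with limma 3.58.1 (R 4.3.3, 4 group means, variance trend, two-sided) over 31042 non-control probe sets, with Benjamini-Hochberg adjustment and a threshold of 0.05. An exact permutation test of 3 against 3 arrays cannot go below p = 0.1. Of these probe sets 20826 had 1 gene symbol, 436 several and 9780 none, and symbols were updated through gene identifiers to RefSeq. A gene was tested by its probe set with the highest mean.

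The members and lists were chosen with earlier results of these data known. Named were all members, up to 6 genes per list called between groups A and D by size (otherwise up to 3 of the largest differences), and the 8 genes most like each calprotectin gene. Tlr4, Ager, Bsg and Timp1, and Csf3r against groups B and C, were added after their values were seen. The scripts were tested on simulated data. Alternatives were no normalization, a floor of 32, centring on the 75th percentile, removal of the dimmest 40% of probe sets, no variance trend, a fit of the 2 groups compared alone, the other Mmp9 probe set, a replicate block, and leaving out each array.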

Additional observations from a re-analysis of the deposited data

How the results depend on the processing

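Without normalization the median of all probe sets shifted by -0.12 for group A, by -0.55 for B and by -0.70 for C, each against group D. On that scale the difference of S100a9 between groups B and D turned to -0.43 and that of Camp between C and D to -0.37 (-0.047 with centring on the 75th percentile), while Lcn2 passed between C and D at -2.10 (adjusted p = 0.0144), the only member to do so (1 gene). Of the other neutrophil genes 1 then rose in group A and 21 fell in group C, where 22.7% of all probe sets were called in C against D on that scale (7058, against 16 with normalization). No list gene called in group A changed direction under either scaling, and 12 of 34 were called without normalization and 32 with centring (Ms4a1 had an adjusted p of 0.3165 with centring). The list medians of granule, receptor, chemoattractant, monocyte, eosinophil, mast cell and T cell genes in group A were under 0 without normalization (from -0.19 to -0.01), that of eosinophil markers also with centring. Other neutrophil genes called in group A numbered 3 higher and 2 lower without the variance trend, and 3 and 2 with only these groups fitted. The Mmp9 difference of group B from C was -0.35 by the other probe set. With a floor of 32, S100a8 in group A was 1.54 above group D, and genes with all arrays at the floor gave no value. With the dimmest 40% of probe sets removed, Np4 and Camp were not tested. Leaving out 1 array at a time gave 4 to 5 members without overlap between A and D, and 0 to 2 members called for B as well as for C (2 without replicate 3 of group D). Of the other neutrophil genes it gave 3 to 8 higher and 2 to 5 lower for group A, 0 to 1 and 0 to 2 for B, and 0 to 1 and 0 to 4 for C. Differences that changed sign ranged from -0.29 to 1.41 for S100a8, -0.39 to 0.24 for S100a9 and -0.40 to 0.18 for Mmp9 between B and D, from -0.51 to 0.074 for Mmp9 and -0.17 to 0.42 for Camp between C and D, from -0.27 to 0.23 for Camp between A and D, and from -0.16 to 1.34 for Np4 between B and C. The cause of these shifts was not tested.

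Replicates are numbered alike in each group, and the sources used here do not say whether the numbers pair the pups. None of 18 same-number pairs had deviations correlated over 0.1 (from -0.02 to 0.08), but 9 of 12 arrays correlated best with an array of their own number. These values do not decide whether the numbers mark a pairing. With a replicate block 6387 probe sets were called for group A against D (6313 without it), 5 for B and 17 for C. No call of a member changed, and 4 members had group A above group D without overlap, as without the block.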
